A study of Homo sapiens with 12 samples.

Results

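The MTRNR2L genes are nuclear copies of MT-RNR2, the mitochondrial gene for the large (16S) ribosomal RNA, and each carries a short reading frame like that of the peptide humanin. The family was chosen by its values in the comparison of CDKO with CTRL iMeLC described below, where 2 of its genes passed the test, and its members were then taken as every row, in both deposited count tables, whose symbol is MTRNR2L followed by a number, which gave 11 genes of the 36762 symbols in each table. GENCODE release 29 annotates 13 such genes, and MTRNR2L2 and MTRNR2L9 were not analysed here. The libraries were bulk RNA-seq of UCLA1, a human embryonic stem cell line, in which TET1 catalytic domain knockout lines (CDKO) were set against control lines (CTRL). TET1 oxidises 5-methylcytosine in DNA, and the study asked how this activity bears on the human germ cell fate. Each genotype was profiled as stem cells (hESC) and as incipient mesoderm-like cells (iMeLC), the intermediate from which primordial germ cell-like cells are made. This gave the groups CDKO iMeLC, CTRL iMeLC, CDKO hESC and CTRL hESC, with 3 libraries in each. The iMeLC libraries carry a line number (CDKO1102, CDKO1105 and CDKO1312, and CTRL1101, CTRL1106 and CTRL1109), while the hESC columns carry only a genotype and a number. The labels do not say how the lines were derived, so p-values measure the spread between these libraries, in which line, culture and preparation cannot be told apart.

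Humanin is a small peptide read from within the 16S ribosomal RNA. It was found in a search for factors that protect neurons from Alzheimer's disease genes, and it is known to bind the pro-apoptotic protein BAX and to act on cells through formyl peptide receptors and a receptor complex of CNTFR, IL27RA and IL6ST. The nuclear copies arose when pieces of mitochondrial DNA were inserted into the chromosomes, and whether each yields a peptide in cells is largely unsettled. Because mitochondrial ribosomal RNA is one of the most abundant RNAs in a cell, a read from it that is placed on a nuclear copy adds to that copy's count.

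The humanin-like reading frames are shown because the copies that took most counts differ in how far they are from MT-RNR2. All sequences are on GRCh38, read 5′ to 3′ on the gene's own strand from the GENCODE release 29 transcripts, with start and stop codons, and capitals mark bases that differ from the MT-RNR2 frame.
MT-RNR2 (chrM:2633-2707, plus strand): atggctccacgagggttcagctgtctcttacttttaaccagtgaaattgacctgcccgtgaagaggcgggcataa
MTRNR2L12 (chr3:96617199-96617273, minus strand): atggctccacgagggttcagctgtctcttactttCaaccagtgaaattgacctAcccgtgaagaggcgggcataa
MTRNR2L8 (chr11:10508152-10508226, minus strand): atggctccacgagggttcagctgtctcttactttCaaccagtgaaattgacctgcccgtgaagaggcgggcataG
MTRNR2L1 (chr17:22524062-22524136, plus strand): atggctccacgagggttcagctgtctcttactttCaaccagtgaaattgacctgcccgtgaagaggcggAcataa
MTRNR2L6 (chr7:142667231-142667305, plus strand): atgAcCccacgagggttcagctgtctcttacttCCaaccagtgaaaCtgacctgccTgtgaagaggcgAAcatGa
MTRNR2L10 (chrX:55181920-55181994, minus strand): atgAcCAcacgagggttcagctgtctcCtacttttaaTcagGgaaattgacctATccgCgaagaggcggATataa
MTRNR2L7 (chr10:37601970-37602044, minus strand): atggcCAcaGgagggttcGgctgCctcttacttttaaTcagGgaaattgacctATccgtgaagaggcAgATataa
The frame was 75 bases long in 10 of the 11 genes and 87 bases in MTRNR2L4. MTRNR2L12, MTRNR2L8 and MTRNR2L1 each differed from MT-RNR2 at 2 of the 75 bases, while the other genes differed at 9 to 12. Counting positions from 1 at the first base of the start codon, the change T35C was shared by 7 of the 11 genes, among them the 3 closest. MTRNR2L10, MTRNR2L7, MTRNR2L11, MTRNR2L13 and MTRNR2L4 shared C38T instead or, in MTRNR2L4, as well.

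The same 3 genes were closest to MT-RNR2 in local alignments of the transcripts. Identity was 95.14% for MTRNR2L12, 93.09% for MTRNR2L8, 88.62% for MTRNR2L1, 85.28% for MTRNR2L6 and 81.17% for MTRNR2L10, and lay between 77.9% and 80.49% for the other 6. Of the 50-base windows of MTRNR2L12, 15.3% occur letter for letter in MT-RNR2 and 59.1% occur there with at most 2 mismatches. For MTRNR2L8 these shares were 8.93% and 39.4%, and at most 2 mismatches sufficed for 16.8% of windows in MTRNR2L1, 7.08% in MTRNR2L6, 7.02% in MTRNR2L10 and 3.15% or less in the rest. MTRNR2L8 and MTRNR2L12 were 95.52% identical to each other. The counting program and its treatment of reads that match several places were not stated in the sources used, so counts of MTRNR2L12 and MTRNR2L8 above all are uncertain as measures of those genes. MT-RNR2 itself has no row among the counted genes and so was not analysed here. The part of its reads in these counts was not tested.

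The libraries held 52121702 to 109479071 counts in iMeLC and 12517593 to 18855099 in hESC, so stage coincides with depth and with the deposited table, and its effect cannot be told apart from theirs. TET1, the targeted gene, was counted at 303.6 to 356 CPM in CDKO iMeLC and 289 to 322 CPM in CTRL iMeLC, and at 335 to 396 CPM in CDKO hESC and 290.4 to 339 CPM in CTRL hESC. CPM are counts divided by library totals, which were adjusted here by TMM factors over all 12 libraries. They are counts over all of its exons together, so they check neither the labels nor the deletion. All 5 pluripotency markers (POU5F1, NANOG, SOX2, LIN28A and DPPA4) were counted in every group. 4 of 5 primitive streak markers were called higher in iMeLC than in hESC in each genotype by edgeR's quasi-likelihood test, where 32.1% of all genes tested were called higher in CDKO and 29.5% in CTRL. The library CDKO hESC 3 stood apart from the other hESC libraries in the summed level of 4 definitive endoderm markers, at 128 CPM beside 4.40 to 18.96 CPM in the other 5. Without it the summed MTRNR2L log2 ratio of CDKO over CTRL in hESC was -0.85, beside -0.81 with it.

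The family as a whole took a small share of the libraries. Summed over the 11 genes, the level was 671, 748 and 477 CPM in CDKO1102, CDKO1105 and CDKO1312 iMeLC, against 243, 187 and 212 CPM in CTRL1101, CTRL1106 and CTRL1109 iMeLC. In stem cells it was 76.4, 141 and 118 CPM in CDKO hESC 1 to 3, against 169.9, 228 and 188 CPM in CTRL hESC 1 to 3. The CDKO libraries thus lay above every CTRL library in iMeLC and below every CTRL library in hESC, with no overlap at either stage. The means were 632 ± 139 CPM in CDKO iMeLC and 214 ± 27.8 CPM in CTRL iMeLC, and 112 ± 32.9 CPM in CDKO hESC and 195 ± 29.9 CPM in CTRL hESC (SD, n = 3 each). As log2 ratios of these means, the genotype difference was 1.56 in iMeLC and -0.81 in hESC. The sum is unaffected by reads moved among these 11 genes, but not by reads shared with MT-RNR2 or other copies or dropped for matching several places.

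**Figure D1:**
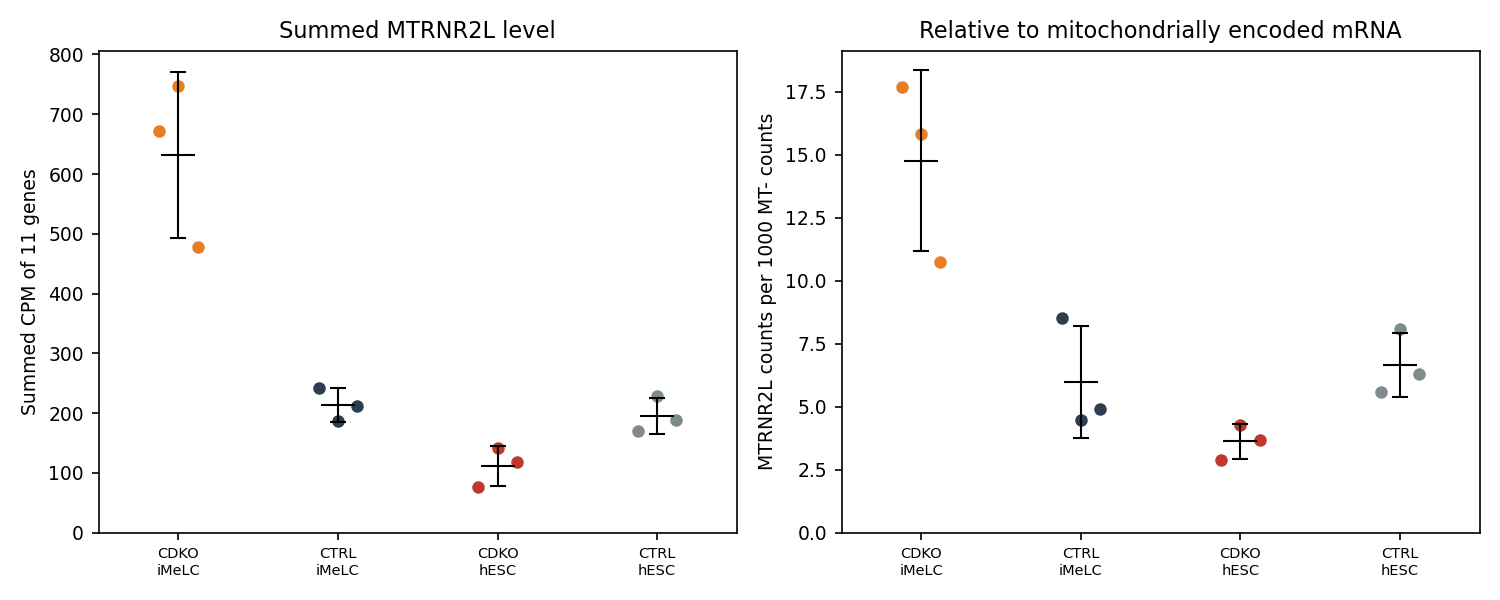
Summed level of the 11 MTRNR2L genes in CPM (left) and their counts per 1000 counts of the 13 mitochondrially encoded protein genes (right), by group, with a point per library and bars for the mean and SD (n = 3). On both axes the 3 CDKO iMeLC libraries are the highest of all and the 3 CDKO hESC libraries are the lowest.

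The mitochondrially encoded genes (symbols starting MT-) differed less between the groups. They took 2.5% to 4.04% of all counts over the 12 libraries, and their summed level averaged 43190 ± 4779 CPM in CDKO iMeLC and 37820 ± 8135 CPM in CTRL iMeLC, and 30408 ± 3485 CPM in CDKO hESC and 29481 ± 1071 CPM in CTRL hESC (SD, n = 3 each). None of the 13 was called in either genotype comparison, where 0.345% of all genes tested were called in iMeLC and 1.31% in hESC. For a list of this size these shares give 0, so nothing is read from that count. Their median log2 fold change was 0.20 in iMeLC, where 12 of the 13 were positive, and 0.02 in hESC, where 7 were. MT-ND1, a complex I subunit gene that follows MT-RNR2 on the same strand of the mitochondrial genome, had a log2 fold change of 0.38 (SE 0.09) in iMeLC and 0.20 (SE 0.10) in hESC. Set against these genes, the MTRNR2L sum was 14.8 ± 3.6 per 1000 MT- counts in CDKO iMeLC and 5.97 ± 2.22 in CTRL iMeLC, and 3.62 ± 0.70 in CDKO hESC and 6.66 ± 1.27 in CTRL hESC (SD, n = 3 each). The groups stayed apart on this scale at both stages. The 13 genes are messenger RNAs, so they do not measure the amount of mitochondrial ribosomal RNA in a library.

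The copies that made up the sum differed between the stages. MTRNR2L12 and MTRNR2L8, the copies nearest to MT-RNR2, held 52.5% and 27.7% of all MTRNR2L counts in CDKO hESC, and 53.5% and 30.8% in CTRL hESC. In iMeLC the largest share of a group's pooled counts was that of MTRNR2L10, with 48.0% in CDKO and 38.8% in CTRL. The library CTRL1106 differed, with 5286 counts of MTRNR2L1, 3508 of MTRNR2L12 and 3493 of MTRNR2L10. MTRNR2L12 held 15.6% in CDKO iMeLC and 18.9% in CTRL iMeLC, MTRNR2L6 13.8% and 10.2%, and MTRNR2L1 12.7% and 20.7%. MTRNR2L8 held 6.37% and 8.33% there.

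**Figure D2:**
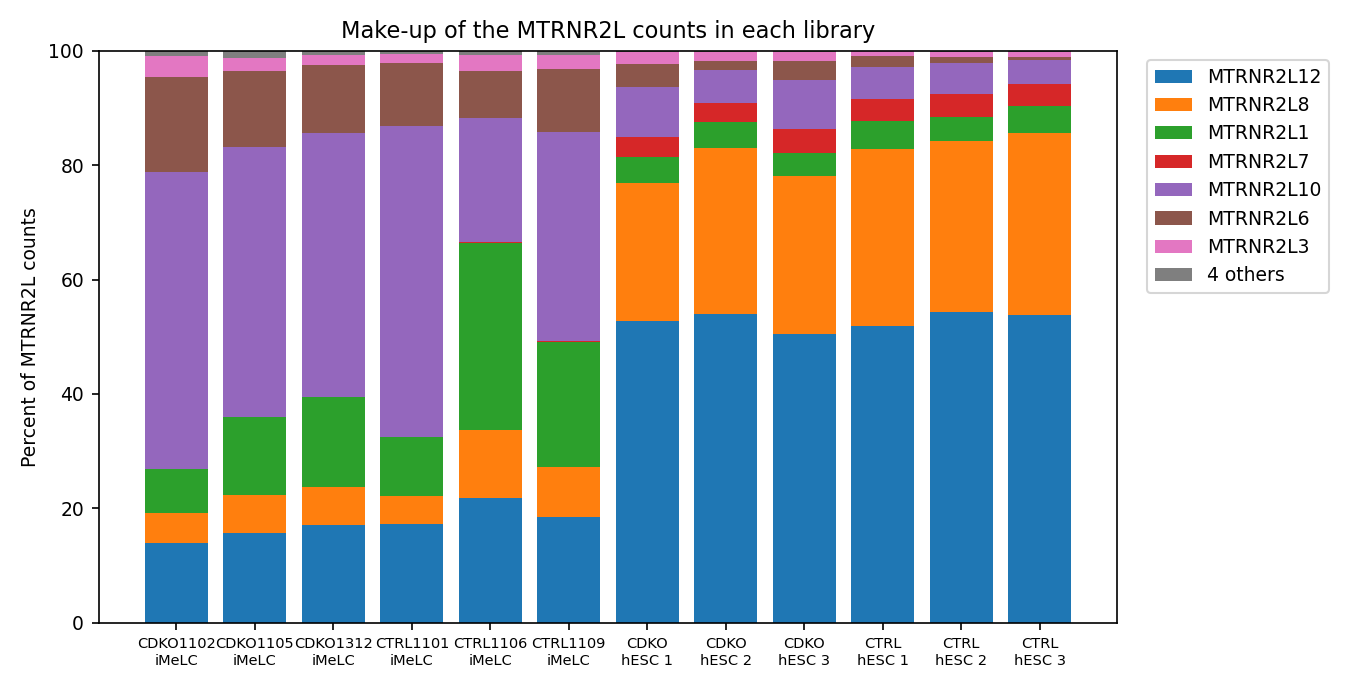
Share of each MTRNR2L gene in the MTRNR2L counts of each of the 12 libraries, in percent, with MTRNR2L4, MTRNR2L5, MTRNR2L11 and MTRNR2L13 added together. MTRNR2L12 and MTRNR2L8 fill most of each hESC bar, and MTRNR2L10, MTRNR2L6 and MTRNR2L1 fill most of each iMeLC bar.

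The order of the genes was compared per length, as CPM per kb of the annotated transcript. In CDKO iMeLC MTRNR2L10 stood highest at 201 ± 49.4 CPM per kb, followed by MTRNR2L12 at 92.7 ± 17.2, MTRNR2L6 at 61.7 ± 20.0, MTRNR2L1 at 49.1 ± 16.1 and MTRNR2L8 at 30.1 ± 7.56. The libraries of MTRNR2L6 and MTRNR2L1 overlapped, as did those of MTRNR2L1 and MTRNR2L8. In CTRL iMeLC the levels were 54.5 ± 30.1 for MTRNR2L10, 38.7 ± 1.45 for MTRNR2L12, 28.4 ± 11.8 for MTRNR2L1, 15.01 ± 3.86 for MTRNR2L6 and 13.6 ± 4.10 for MTRNR2L8, each overlapping with the next.

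In CDKO hESC the order per length was MTRNR2L12 at 55.9 ± 17.2 CPM per kb, MTRNR2L8 at 23.5 ± 8.72, MTRNR2L10 at 5.38 ± 1.10, MTRNR2L1 at 3.15 ± 1.01, MTRNR2L7 at 2.66 ± 0.76, MTRNR2L6 at 2.20 ± 0.58 and MTRNR2L3 at 1.17 ± 0.23. CTRL hESC gave the same 7 genes in the same order, led by MTRNR2L12 at 99.5 ± 17.4 and MTRNR2L8 at 46.2 ± 5.94 CPM per kb. In both hESC groups the first 3 genes differed from one another with no overlap, while MTRNR2L1 and MTRNR2L7 overlapped (SD, n = 3 throughout). The other 4 genes, MTRNR2L4, MTRNR2L5, MTRNR2L11 and MTRNR2L13, stayed below 0.1 CPM per kb on average in both hESC groups.

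Levels per length and closeness to MT-RNR2 ran together at both stages. Over the 11 genes, Spearman's rho between identity and the mean level per kb was 0.664 in iMeLC and 0.882 in hESC, and the difference between these was not tested. Genes are not independent replicates, all 11 values of a stage come from the same 6 libraries, and the more alike copies can share reads. The log2 fold changes of genotype had a rho with identity of -0.164 over 10 genes in iMeLC and -0.357 over 7 genes in hESC.

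**Figure D3:**
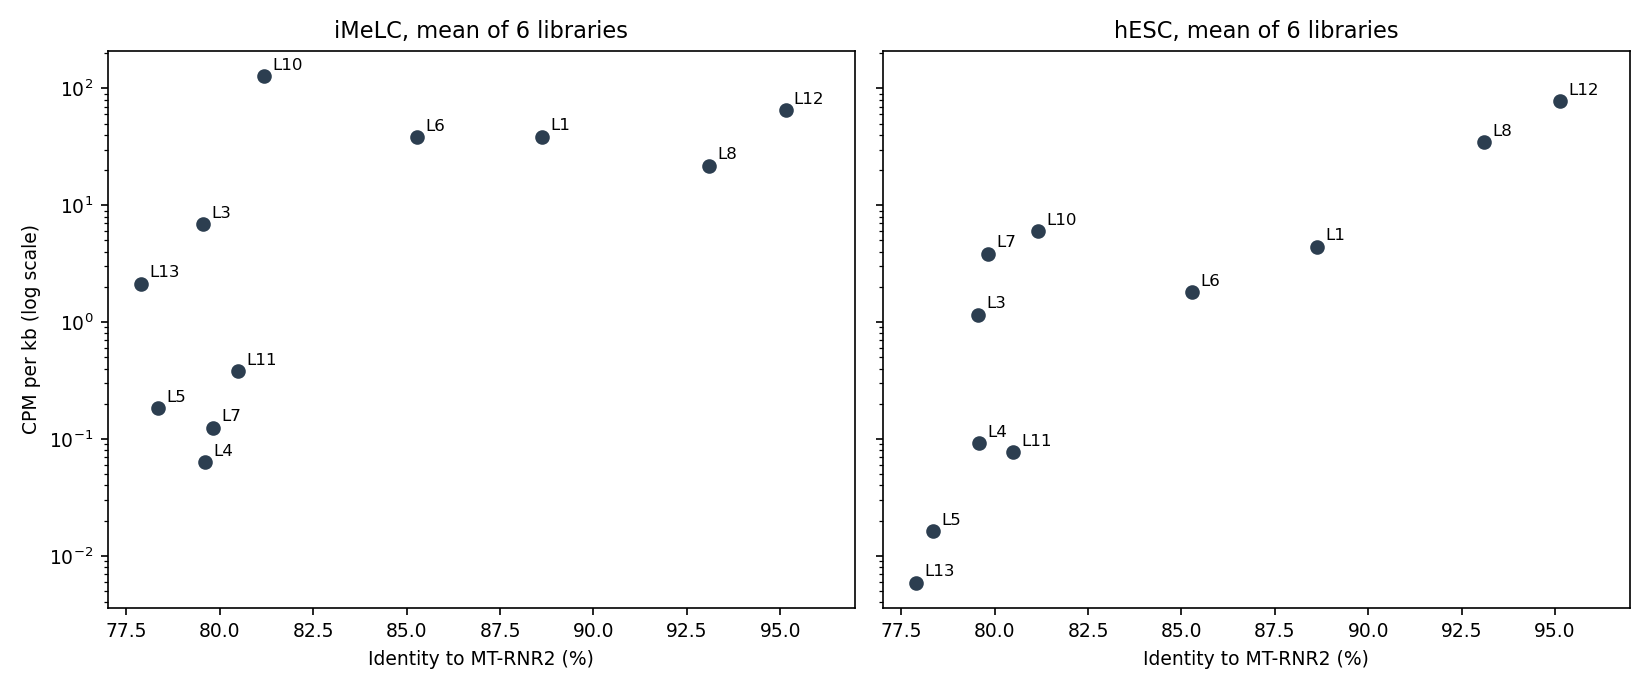
Mean level of each MTRNR2L gene over the 6 libraries of a stage, in CPM per kb on a log scale, against the identity of its transcript to MT-RNR2 in percent, for iMeLC (left) and hESC (right), with L standing for MTRNR2L. MTRNR2L12 and MTRNR2L8 are the 2 highest in hESC, whereas MTRNR2L10 at 81.17% identity is the highest in iMeLC.

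The comparison of CDKO with CTRL in hESC is the one whose values did not bring the family forward, and its members were tested. 7 of the 11 genes passed the filter on low counts in the fit over all genes, and none was called by edgeR's quasi-likelihood test at an adjusted p of 0.05, where 1.31% of the 17222 genes tested were called in either direction. In 4 of the 7, MTRNR2L8, MTRNR2L12, MTRNR2L1 and MTRNR2L7, every CDKO library lay below every CTRL library, as in 11.8% of all genes tested. In 0 it lay above, as in 10.2%. Copies that are alike may share reads, so the 4 are not separate observations. The median log2 fold change was -0.82 over the 7 genes and -0.002 over all genes tested.

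MTRNR2L12, the most counted copy in stem cells, had 40.3, 76.3 and 59.3 CPM in CDKO hESC 1 to 3, against 88.1, 124 and 101 CPM in CTRL hESC 1 to 3. The highest CDKO library stood below the lowest CTRL library, and the log2 fold change was -0.82 (SE 0.20, 95% interval -1.27 to -0.37, adjusted p = 0.0904, edgeR). MTRNR2L8, the copy whose transcript also holds the microRNA gene MIR4485, had 18.5, 41.0 and 32.4 CPM in CDKO hESC, against 52.7, 68.1 and 59.7 CPM in CTRL hESC. Here too the groups did not overlap, and the log2 fold change was -0.95 (SE 0.23, interval -1.46 to -0.45, adjusted p = 0.0803, edgeR).

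MTRNR2L1 had 3.40, 6.52 and 4.77 CPM in CDKO hESC, against 8.30, 9.50 and 8.81 CPM in CTRL hESC, with no overlap. Its log2 fold change was -0.83 (SE 0.22, adjusted p = 0.112, edgeR). MTRNR2L7 had 2.75, 4.57 and 4.92 CPM in CDKO hESC, against 6.49, 9.50 and 7.20 CPM in CTRL hESC, again apart, and its log2 fold change was -0.90 (SE 0.24, adjusted p = 0.116, edgeR). MTRNR2L7 is 79.82% identical to MT-RNR2, and 0.0673% of its 50-base windows lie within 2 mismatches of it. The part of MT-RNR2 reads in any of these differences was not tested. The calls depended on the method: DESeq2 called MTRNR2L1 (adjusted p = 0.0198) and MTRNR2L7 (adjusted p = 0.0221) but neither MTRNR2L8 nor MTRNR2L12. Without a filter on low counts edgeR called all 4. Both settings also called more of all genes, 618 with DESeq2 and 1228 without the filter, beside 226 as reported. Nothing is therefore read from these added calls.

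The other 3 genes overlapped between the groups. MTRNR2L10 had 6.65, 8.08 and 9.99 CPM in CDKO hESC, against 9.67, 12.3 and 8.12 CPM in CTRL hESC, a log2 fold change of -0.27 (SE 0.20, interval -0.71 to 0.18, adjusted p = 0.541, edgeR). MTRNR2L6 had 3.11, 2.38 and 4.05 CPM in CDKO hESC, against 3.13, 2.22 and 0.83 CPM in CTRL hESC, and the log2 fold change was 0.65 (SE 0.41, adjusted p = 0.47, edgeR). MTRNR2L3 was at 1.52 to 2.19 CPM in CDKO hESC and 1.43 to 2.07 CPM in CTRL hESC, and its log2 fold change was 0.05 (SE 0.27, adjusted p = 0.952, edgeR). MTRNR2L4, MTRNR2L5, MTRNR2L11 and MTRNR2L13 had 0 to 5 counts in each CDKO hESC library and 0 to 6 in each CTRL hESC library, and a difference was not detectable at this depth.

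In iMeLC the comparison of CDKO with CTRL brought the family forward, so its values are a description and no p is given. Of the 11 genes 10 passed the filter, and all 10 had a positive log2 fold change, with a median of 1.17 beside -0.03 over all genes tested. MTRNR2L12 and MTRNR2L6 were called higher, where 0.08% of the 19999 genes tested were called higher, and in 7 of the 10 every CDKO library lay above every CTRL library, as in 14.3% of all genes tested. Nothing is read from these counts, since the choice of the family used them. The calls also changed with a library left out. Of these genes 6 were called without CTRL1101, 3 without CDKO1312 and 1 without CTRL1106 or without CDKO1105. The count was 0 without CTRL1109 or without CDKO1102. Over all genes tested the number called moved as well, from 69 to 2646 without CTRL1101 and to 15 without CDKO1102. With a library left out, the log2 fold change ran from 1.09 to 1.35 for MTRNR2L12 and from 1.81 to 2.26 for MTRNR2L6.

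MTRNR2L10, on the X chromosome, was the most counted copy in every iMeLC library but CTRL1106, where MTRNR2L1 and MTRNR2L12 stood above it. It had 349, 352 and 219.7 CPM in CDKO1102, CDKO1105 and CDKO1312, against 132, 40.5 and 77.6 CPM in CTRL1101, CTRL1106 and CTRL1109. The CTRL libraries spread over a wide range, all of it below the CDKO libraries, and the log2 fold change was 1.85 (SE 0.39). MTRNR2L6, on chromosome 7, had 112, 99.4 and 56.8 CPM in the CDKO libraries, against 26.4, 15.5 and 23.2 CPM in the CTRL libraries, a log2 fold change of 2.01 (SE 0.28). MTRNR2L3, in an intron of RAE1 on the opposite strand, had 23.7, 17.6 and 8.38 CPM in the CDKO libraries, against 4.21, 5.17 and 5.03 CPM in the CTRL libraries, a log2 fold change of 1.75 (SE 0.35). RAE1, an mRNA export factor gene, had a log2 fold change of 0.18 (SE 0.12) in the same comparison.

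MTRNR2L13, which holds the microRNA gene MIR1973, showed the widest ratio, at 5.68, 7.58 and 2.78 CPM in the CDKO libraries, against 0.81, 0.56 and 1.10 CPM in the CTRL libraries. Its log2 fold change was 2.67 (SE 0.43). By identity it is also the copy furthest from MT-RNR2, at 77.9%. Of its windows 0.143% lie within 2 mismatches, a share that is lower still in MTRNR2L7, at 0.0673%, and in MTRNR2L5, at 0%. MTRNR2L11 had 0.80, 1.0 and 0.59 CPM in the CDKO libraries, against 0.32, 0.51 and 0.34 CPM in the CTRL libraries, a log2 fold change of 1.0 (SE 0.40) with no overlap.

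The 3 copies nearest to MT-RNR2 also had positive log2 fold changes in iMeLC. MTRNR2L12 had 93.5, 117 and 81.3 CPM in the CDKO libraries, against 42.0, 40.7 and 39.0 CPM in the CTRL libraries, a log2 fold change of 1.23 (SE 0.13). The CTRL libraries of this gene were the closest to one another of the 4 groups. MTRNR2L8 had 35.0, 50.5 and 32.3 CPM in the CDKO libraries, against 11.9, 22.4 and 18.8 CPM in the CTRL libraries, a log2 fold change of 1.11 (SE 0.26). MTRNR2L1 overlapped between the groups, with 51.8, 102 and 75.1 CPM in the CDKO libraries, against 24.9, 61.3 and 46.2 CPM in the CTRL libraries, a log2 fold change of 0.75 (SE 0.34).

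The rest were near the limit of counting. MTRNR2L7 had 6 to 29 counts in the CDKO iMeLC libraries and 4 to 18 in the CTRL iMeLC libraries, with a log2 fold change of 0.77 (SE 0.70). MTRNR2L5, in an intron of PCDH15 on the opposite strand, had 5 to 22 and 3 to 18 counts, with a log2 fold change of 0.97 (SE 0.77). PCDH15, a protocadherin gene, had a log2 fold change of 1.58 (SE 0.42), and reads of the 2 genes cannot be told apart where the counting did not use strand. MTRNR2L4 did not pass the filter, with 3 to 15 counts in the CDKO libraries and 3 to 20 in the CTRL libraries.

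**Figure D4:**
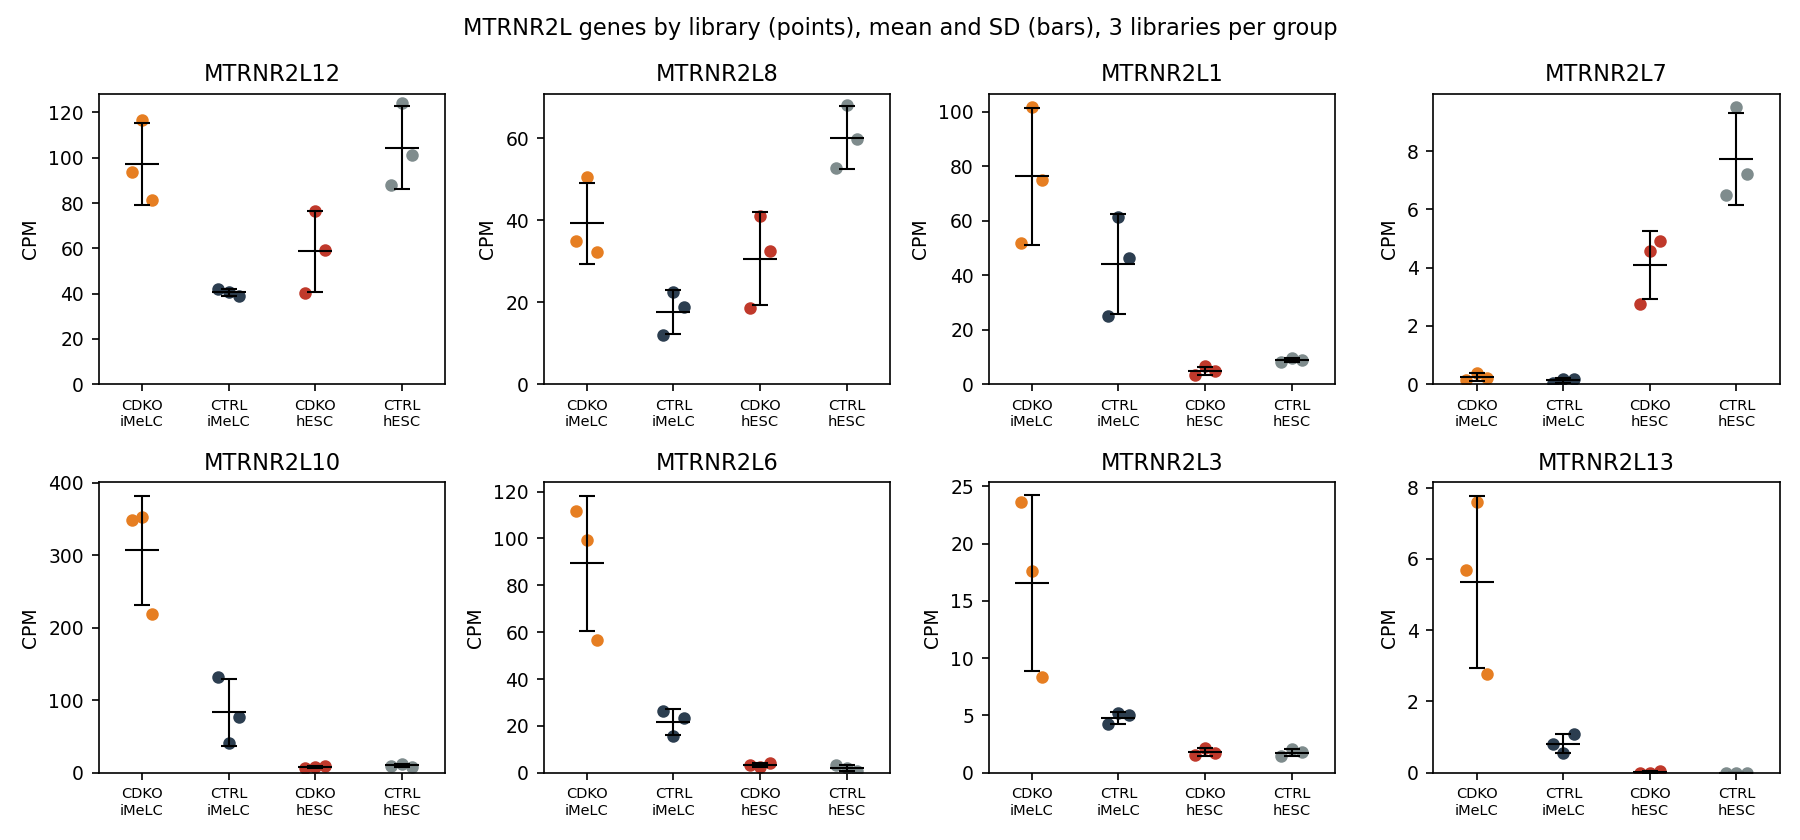
Level of 8 MTRNR2L genes in CPM, by group, with a point per library and bars for the mean and SD (n = 3), each panel on its own scale from 0. MTRNR2L12 and MTRNR2L8 have CDKO above CTRL in iMeLC and below it in hESC, MTRNR2L7 is near 0 in iMeLC, and MTRNR2L13 is near 0 in hESC.

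**Figure D5:**
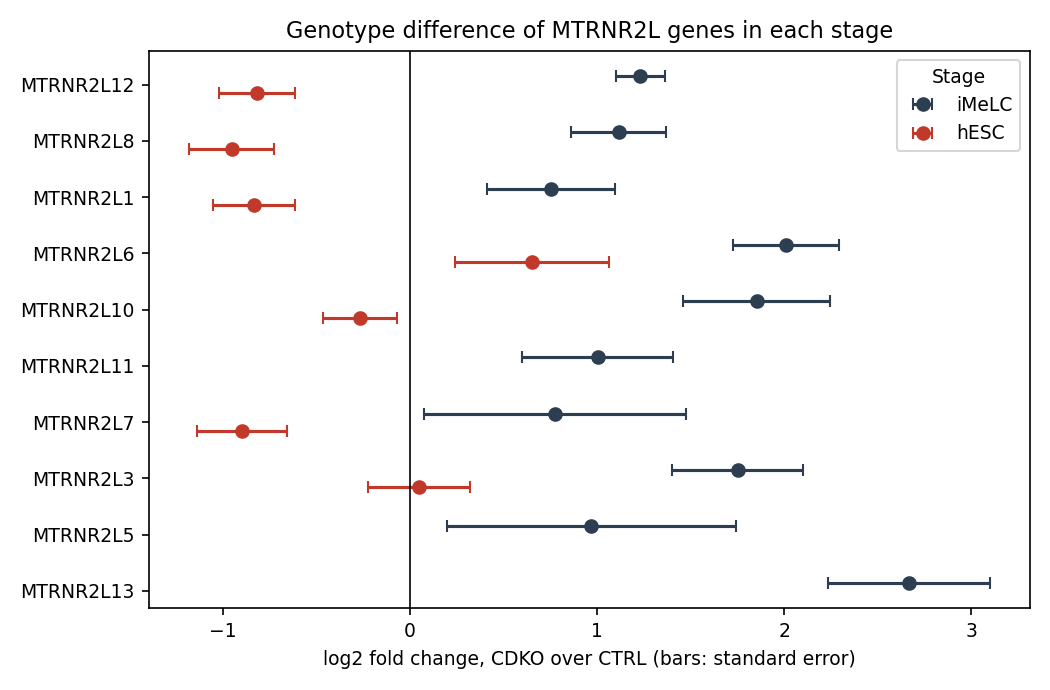
Log2 fold change of CDKO over CTRL for the 10 MTRNR2L genes that passed the filter in at least 1 stage, in iMeLC (upper points) and hESC (lower points), with bars for the standard error from edgeR fits on the 6 libraries of the stage. All 10 iMeLC points lie above 0, and 5 of the 7 hESC points lie below 0.

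The stages were compared within each genotype, in a fit over all 12 libraries. These comparisons use the same iMeLC libraries as above, so counts are given beside the background and no p is printed. In CDKO 9 genes passed the filter, and 7 were called higher and 1 lower in iMeLC, where 32.1% of the 20262 genes tested were called higher and 27.7% lower. In CTRL 5 were called higher and 3 lower, where the shares over all genes were 29.5% and 19.9%. MTRNR2L11 and MTRNR2L13 had 5 and 1 counts over the CDKO hESC libraries, and 9 and 0 over the CTRL hESC libraries. They did not pass the filter in the fit on hESC and passed it here through the iMeLC libraries, where they are higher. Both are among the 7 called higher in CDKO, and MTRNR2L13 is among the 5 in CTRL. Nothing is read from their calls.

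Among the genes higher in iMeLC, the size of the difference varied. MTRNR2L10 had a log2 fold change of iMeLC over hESC of 5.21 (SE 0.40) in CDKO and 3.06 (SE 0.37) in CTRL, with hESC libraries at 6.65 to 9.99 CPM in CDKO and 8.12 to 12.3 CPM in CTRL. MTRNR2L6 had 4.81 (SE 0.39) in CDKO and 3.42 (SE 0.39) in CTRL, MTRNR2L1 had 3.94 (SE 0.35) and 2.31 (SE 0.32), and MTRNR2L3 had 3.19 (SE 0.34) and 1.44 (SE 0.33). For all 4 genes every iMeLC library lay above every hESC library of its genotype, as in 36.1% of all genes tested in CDKO and 30.6% in CTRL. RAE1, which spans MTRNR2L3, had log2 fold changes of 1.0 (SE 0.13) in CDKO and 0.91 (SE 0.13) in CTRL.

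MTRNR2L13 was all but uncounted in stem cells. It had 1023 counts in the CDKO iMeLC libraries together and 1 count in the CDKO hESC libraries, a CPM ratio of 290 (exact 95% interval 52 to 11500, for counting error only). In CTRL it had 229 counts in iMeLC and 0 in hESC, 16.7-fold higher when the hESC group is set at 3 counts. This figure leaves out the counting error of the iMeLC libraries. MTRNR2L5 had 37 counts in CDKO iMeLC and 1 in CDKO hESC, a ratio of 10.5 (1.77 to 426). It had 26 in CTRL iMeLC and 0 in CTRL hESC, 1.89-fold higher with the hESC group set at 3 counts in the same way. MTRNR2L11 had 153 counts in CDKO iMeLC and 5 in CDKO hESC, a ratio of 8.68 (3.64 to 27.1), and 106 in CTRL iMeLC and 9 in CTRL hESC, a ratio of 2.57 (1.30 to 5.78). All intervals of this paragraph are for counting error only and leave out the spread between libraries. The CTRL hESC libraries had 1, 6 and 2 counts of MTRNR2L11. In the fit over all 12 libraries it was not called in CTRL, at a log2 fold change of 1.36 (SE 0.58). MTRNR2L4 had 24 counts in CDKO iMeLC and 9 in CDKO hESC, a ratio of 0.757 (0.34 to 1.85), and 27 in CTRL iMeLC and 10 in CTRL hESC, a ratio of 0.589 (0.276 to 1.36), so its intervals include no difference.

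MTRNR2L7 went the other way, with every iMeLC library below every hESC library, as in 34.6% of all genes tested in CDKO and 24.3% in CTRL. It was counted 50 times in CDKO iMeLC and 228 times in CDKO hESC, and 39 times in CTRL iMeLC and 463 times in CTRL hESC, although the iMeLC libraries were deeper. Its log2 fold change of iMeLC over hESC was -4.01 (SE 0.46) in CDKO and -5.75 (SE 0.48) in CTRL. The CDKO iMeLC libraries had 0.13 to 0.38 CPM, against 2.75 to 4.92 CPM in CDKO hESC, and the CTRL iMeLC libraries had 0.05 to 0.20 CPM, against 6.49 to 9.50 CPM in CTRL hESC. MTRNR2L10 and MTRNR2L7, which differed between the stages in opposite directions, are 87.68% identical to each other over their transcripts.

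MTRNR2L12 and MTRNR2L8 had a stage difference of opposite sign in the 2 genotypes. For MTRNR2L12 the log2 fold change of iMeLC over hESC was 0.73 (SE 0.20) in CDKO and -1.37 (SE 0.20) in CTRL. For MTRNR2L8 it was 0.35 (SE 0.28), with overlapping libraries, in CDKO and -1.76 (SE 0.28) in CTRL. The summed family had a log2 ratio of iMeLC over hESC of 2.50 in CDKO and 0.13 in CTRL, where the means of 214 and 195 CPM differ by less than either SD. That last ratio changes sign without MTRNR2L10, to -0.51, without CTRL1101, to -0.01, and on the scale of MT- counts, to -0.16.

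The genotype by stage interaction asks whether the CDKO over CTRL difference in iMeLC differed from that in hESC. Of 20262 genes tested 4 were called, 0.0197%, and MTRNR2L12 was among them, at a log2 difference of 2.09 (SE 0.28). MTRNR2L8 stood at 2.12 (SE 0.39) and MTRNR2L10 at 2.15 (SE 0.50), and MTRNR2L1, MTRNR2L3, MTRNR2L6, MTRNR2L7 and MTRNR2L11 lay between 1.39 and 1.74. With 1 count in all hESC libraries together, MTRNR2L13 gave no usable estimate. The iMeLC part of this value comes from the comparison that brought the family forward, so nothing is read from the count. A difference between the tables cancels here only where it multiplies a gene's counts by the same factor in both genotypes. Reads added to a row from MT-RNR2 or another copy need not cancel, and their part was not tested.

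The ratios between copies varied from library to library. The ratio of MTRNR2L8 to MTRNR2L12 was 0.374 to 0.433 in the CDKO iMeLC libraries and 0.284 to 0.552 in the CTRL iMeLC libraries, and 0.459 to 0.547 in the CDKO hESC libraries and 0.549 to 0.598 in the CTRL hESC libraries. MTRNR2L10 to MTRNR2L12 ran from 2.70 to 3.73 in CDKO iMeLC and from 0.996 to 3.15 in CTRL iMeLC, against 0.106 to 0.168 in CDKO hESC and 0.0803 to 0.11 in CTRL hESC. MTRNR2L6 to MTRNR2L12 ran from 0.699 to 1.2 in CDKO iMeLC and from 0.382 to 0.628 in CTRL iMeLC, against 0.0312 to 0.0771 in CDKO hESC and 0.00817 to 0.0356 in CTRL hESC. After each stage's mean was taken off, log2 CPM over the 12 libraries had a Pearson r of 0.94 between MTRNR2L8 and MTRNR2L12, 0.94 between MTRNR2L1 and MTRNR2L8, 0.85 between MTRNR2L6 and MTRNR2L10 and 0.17 between MTRNR2L1 and MTRNR2L6. MTRNR2L8 and MTRNR2L12 are near copies whose reads may have been shared out between them, and all pairs share the libraries and the genotype difference.

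The overlaps with other genes were few. MTRNR2L1 shares exon sequence with AC132825.2 on the opposite strand, a gene with 4 counts in 1 CTRL iMeLC library and 0 in the other 11 libraries. MTRNR2L4 lies in an intron of AC025283.3, which had 0 to 29 counts in a library. MTRNR2L6, MTRNR2L7, MTRNR2L10, MTRNR2L11 and MTRNR2L12 overlap no other annotated gene. Within 5000 bases of MTRNR2L1, MTRNR2L10 and MTRNR2L11 the annotation places 3 more mitochondrial pseudogenes each, near MTRNR2L4 it places 2, near MTRNR2L3 and MTRNR2L7 it places 1 each, all of them not analysed here.

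Genes of humanin's known partners and of mitochondrial RNA production were looked at as lists. Of the 11 receptor and partner genes (FPR2, FPR3, CNTFR, IL27RA, IL6ST, BAX, BID, BCL2L11, IGFBP3, TRIM11 and STAT3), 9 passed the filter in each genotype comparison and 0 were called, where 0.345% of all genes tested were called in iMeLC and 1.31% in hESC, so 0 is what these shares give for a list of this size. Their median log2 fold change was 0.20 in iMeLC, over a range of -0.12 to 1.04. In hESC it was 0.01, over a range of -0.22 to 0.45. Of 21 genes for mitochondrial transcription and RNA processing, such as TFAM, POLRMT and LRPPRC, 0 were called beside the same shares, with medians of 0.08 in iMeLC and 0.03 in hESC. The smallest adjusted p in these lists was 0.0785 in iMeLC and 0.172 in hESC by edgeR.

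Markers of other cell types also differed between the libraries, and their part in the MTRNR2L differences was not tested. The 4 definitive endoderm markers SOX17, FOXA2, GATA6 and GATA4 had a positive log2 fold change in CDKO over CTRL at both stages. Of these 0 were called, where 0.345% of all genes tested were called in iMeLC and 1.31% in hESC. For so short a list these shares give 0. The summed level of the 4 endoderm markers was 127 to 276 CPM in CDKO iMeLC and 10.4 to 112 CPM in CTRL iMeLC, and 9.10, 12.8 and 128 CPM in CDKO hESC 1 to 3 and 4.40 to 18.96 CPM in CTRL hESC. The first 2 of these CDKO hESC libraries lay within the CTRL range, so the hESC difference of these markers rests on CDKO hESC 3. All 8 fibroblast markers, of which stem cells themselves make VIM, had a positive log2 fold change in iMeLC, with 0 called beside the same share. Their sum was 2427 to 3111 CPM in CDKO iMeLC and 1045 to 3038 CPM in CTRL iMeLC. Most of that sum was VIM, at 1634 to 2033 CPM in CDKO iMeLC and 531 to 1986 CPM in CTRL iMeLC. Of the other markers, named here after their values were seen, COL3A1, a fibrillar collagen gene, had 166, 114.5 and 79.9 CPM in CDKO1102, CDKO1105 and CDKO1312, against 46.3, 13.6 and 20.7 CPM in CTRL1101, CTRL1106 and CTRL1109. LUM, the gene of the matrix proteoglycan lumican, had 3.81, 2.48 and 1.45 CPM in the CDKO libraries, against 0.53, 0.22 and 0.36 CPM in the CTRL libraries. DCN, the decorin gene, had 9.26, 7.66 and 3.62 CPM in the CDKO libraries, against 3.43, 0.70 and 1.45 CPM in the CTRL libraries. For these 3 genes every CDKO library lay above every CTRL library, as in 14.3% of all genes tested in iMeLC. COL1A1, COL1A2, POSTN, THY1 and VIM overlapped between the groups, and COL1A1, COL1A2 and POSTN were highest in CTRL1101. The log2 fold changes were 2.14 (SE 0.46) for COL3A1, 2.76 (SE 0.48) for LUM and 1.86 (SE 0.58) for DCN. In hESC 4 of the 5 fibroblast markers tested were positive, and the sum of all 8 was 626 to 802 CPM in CDKO and 462 to 743 CPM in CTRL. THY1 was the largest part of that sum in every hESC library, at 284.6 to 391.5 CPM in CDKO and 219.6 to 362.7 CPM in CTRL. It was lower in iMeLC, at 126.5 to 160.5 CPM in CDKO and 117.3 to 171.6 CPM in CTRL. The hESC sum therefore does not single out fibroblasts. The 5 primitive streak markers summed to 458 to 693 CPM in CDKO iMeLC and 181 to 702 CPM in CTRL iMeLC, and to 14.3 to 97.2 CPM in CDKO hESC and 5.23 to 32.4 CPM in CTRL hESC. No marker of these lists was at 0 in a whole group. In bulk RNA, more cells of a type and more RNA per cell cannot be told apart.

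The 5 genes whose stage-centred log2 CPM ran most like that of the summed MTRNR2L row over the 12 libraries, of 14101 genes with a mean of at least 1 CPM in each stage, were RASA1 (r = 0.95), PPP2CB (r = 0.946), WAC (r = 0.945), TADA1 (r = 0.941) and RANBP9 (r = 0.935). RASA1 encodes a GTPase-activating protein for Ras, PPP2CB a catalytic subunit of protein phosphatase 2A, and TADA1 a subunit of the SAGA histone acetyltransferase complex. RASA1 averaged 116 CPM in CDKO iMeLC and 85.6 CPM in CTRL iMeLC, and 25.5 CPM in CDKO hESC and 29.4 CPM in CTRL hESC. These are the highest of many correlations over libraries that share the groups.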

How the data were processed

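The deposited values were whole-number counts per gene symbol, not normalised, in a table per stage. The RNA was total RNA (RNeasy micro kit) made into libraries by a stranded SMARTer kit, per the labels' protocols. FastQC, cutadapt, edgeR and GRCh38 are named in the submitters' processing notes. For the aligner, counter, annotation, strand setting and any ribosomal RNA depletion, nothing is stated: they were not given in the sources used here.

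Counts were tested with edgeR 4.0.16 (R 4.3.3) by the two-sided quasi-likelihood test after filterByExpr and TMM, with Benjamini-Hochberg adjustment over all genes tested and a threshold of 0.05. Genotype was fitted on the 6 libraries of a stage, and stage and interaction on all 12 with 4 group means. Printed CPM use a single TMM scale over the 12 libraries, so genotype fold changes differ slightly from CPM ratios. Summed rows are log2 ratios of mean CPM, with no test. Standard errors come from the test statistic. Alternatives were RLE factors, no filter, DESeq2 1.42.0, library sizes without MT- and MTRNR2L genes, all 12 libraries and leaving out each library. The pipeline was checked on simulated counts.

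Transcripts, frames and overlaps came from GENCODE release 29, which calls all 11 genes protein-coding. Identity is that of the best local alignment of the transcripts, made with Biopython 1.88. Likeness used log2(CPM + 0.5). Values are given for the family, MT- genes, overlapping genes, TET1, list members called in a genotype comparison (0) and the 5 most alike genes by rule. Members of the lists are otherwise named to say what a list holds, with values for a few fibroblast markers that were chosen after these were seen. The members and lists were chosen with earlier results of these data known. Replicate libraries differed by a chi-square of 4.04 to 181 per gene, above sampling noise, and all were kept as separate.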

Additional observations from a re-analysis of the deposited data

Results flagged for a closer look

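MTRNR2L8 and MTRNR2L12 had genotype differences of opposite direction at the 2 stages: every CDKO library lay above every CTRL library in iMeLC and below every CTRL library in hESC. Taken singly, the first held for 14.3% of all genes tested in iMeLC and the second for 11.8% in hESC. The share of genes with both was not computed, so how unusual the pattern is cannot be said. The difference between the log2 fold changes, iMeLC minus hESC, was 2.12 for MTRNR2L8 and 2.09 for MTRNR2L12. The iMeLC part of both values brought the family forward, so no p is given. The 2 genes are 95.52% identical and are the copies closest to MT-RNR2, so they may share reads and are not 2 separate observations.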

How the results depend on the processing

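No paired analysis was possible because the hESC columns carry no line number, although the labels place the same lines at both stages. In hESC the genes called, 226 as reported, were 1228 without a filter on low counts, 618 with DESeq2, 72 with all 12 libraries in the fit and 5 to 493 with a library left out, and the MTRNR2L genes called, 0 as reported, were 4 without the filter, 2 with DESeq2 and 0 with any library left out. In iMeLC the genes called, 69 as reported, were 428, 1566, 1310 and 15 to 2646 under the same settings, and the MTRNR2L genes called, 2 as reported, were 6, 6, 6 and 0 to 6. For the interaction the genes called, 4 as reported, were 29 without the filter, 217 with DESeq2 and 1 to 439 with a library left out, and the MTRNR2L genes called, 1 as reported, were 3, 5 and 0 to 3. The highest counts in iMeLC and for the interaction came without CTRL1101. The summed iMeLC over hESC log2 ratio in CDKO was 1.65 without MTRNR2L10 and 2.03 on the scale of MT- counts, a scale chosen after seeing the data. In CTRL it was -0.51 and -0.16 there, and -0.014 (without CTRL1101) to 0.27 with a library left out. MTRNR2L3 in hESC ran from -0.12 to 0.17 with a library left out. The interaction of MTRNR2L13, with 1 count in all 6 hESC libraries, was -0.32 as fitted, 1.61 with DESeq2 and -1.0 to 2.67 with a library left out, and is no estimate. The cause of these changes was not tested. Genes with few counts in hESC are limited by depth.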
